A study of Mus musculus with 58 samples.

Results

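The genes described here are *B2m*, *H2-K1*, *H2-D1*, *Tap1*, *Tapbp*, *Irf7*, *Ifit1*, *Ifit3* and *Isg15*, which encode parts of the MHC class I presentation pathway and of the interferon response. They were found by symbol in the results tables of both brain regions, and all 9 were listed among the 31246 genes of each table. RNA-sequencing was performed on 2 cortical regions, entorhinal (EC) and primary visual (PVC), of male C57Bl/6 mice aged 14 to 15 months. Each region had libraries from 10 *APOE3/3* and 19 *APOE3/4* mice, 58 in total, and the labels give the same 29 animal numbers for both. In all of these mice the human *APOE* gene replaced the mouse gene and was driven by the mouse promoter, so there was no group with mouse *Apoe*, and the study describes them as lacking overt Alzheimer's disease pathology and as drawn from 2 colonies.

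Each gene is given by the mean normalized count that the authors computed over the 29 libraries of a region, with both genotypes pooled. The tables' own genotype comparison was not used here, and values of single mice were not analysed here, so no difference was tested and no spread between mice can be set beside any value. The depth of single libraries is likewise not known here. Over all genes the means added up to 49385488 for the EC and 27058393 for the PVC, 1.83 times as much in the former, so levels are given below as parts per 1000000 of these sums (ppm). The EC and PVC were normalized separately by the authors, and every ratio between them is a description. The 7 neuronal markers listed were detected in both regions and summed to 10088 ppm in the EC against 11655 ppm in the PVC. In bulk tissue, fewer cells of a type and less RNA per cell cannot be told apart.

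Class I molecules display peptides from inside the cell to cytotoxic T cells. A heavy chain, encoded in the mouse by *H2-K1* or *H2-D1*, pairs with the light chain beta-2-microglobulin, encoded by *B2m*. *Tap1* encodes a subunit of the transporter that moves peptides into the endoplasmic reticulum, and *Tapbp* encodes tapasin, which holds the heavy chain at that transporter while peptide is loaded. Type I interferons signal through their receptor and JAK kinases to a transcription factor complex that contains IRF9 and binds interferon-stimulated response elements in the promoters of its target genes. *Irf7*, itself such a target, encodes a transcription factor that raises type I interferon transcription. *Ifit1* and *Ifit3* encode proteins that bind viral RNA or the proteins that do so, and *Isg15* encodes a ubiquitin-like protein that is attached to other proteins. In the healthy brain, class I molecules are found on endothelium and microglia, and at lower levels on neurons.

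The promoter sequences of 4 of these genes are shown for the interferon response element core that they hold. RefSeq promoters, which reach from 250 bases before to 50 bases after a transcript start, were searched on both strands for GAAANNGAA, the core of an interferon-stimulated response element, and for TTCNNNGAA, the gamma-activated site of interferon gamma signalling. All 9 genes had a RefSeq promoter, each of which was placed at 1 position of the NCBIM37 (mm9) genome by an exact match. *H2-K1* had 2 starts, and its outer start was used for distances. The windows printed here are the 70 bases that hold the copies of the core, given on the strand of the gene from 5′ to 3′. Capitals mark the core, which reads as its reverse complement where it lies on the opposite strand. Each window lies wholly before the transcript start.
B2m, chr2:121973254-121973323, plus strand: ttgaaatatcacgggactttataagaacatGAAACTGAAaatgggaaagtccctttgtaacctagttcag
Ifit1, chr19:34715252-34715321, plus strand: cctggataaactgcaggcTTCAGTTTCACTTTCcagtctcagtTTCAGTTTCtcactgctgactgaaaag
Ifit3, chr19:34657860-34657929, plus strand: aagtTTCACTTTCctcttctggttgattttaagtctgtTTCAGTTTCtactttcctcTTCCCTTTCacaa
Isg15, chr4:155574960-155575029, minus strand: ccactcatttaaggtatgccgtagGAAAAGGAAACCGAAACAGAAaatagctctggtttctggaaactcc

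The core was present in 4 of the 9 genes, against 9.76% of the 27025 genes with a RefSeq promoter. *B2m* held 1 copy, 139 bases before its start. *Ifit1*, *Ifit3* and *Isg15* held 3 copies each, all within 155 bases of the start and all on 1 strand of each promoter. The copies in *Isg15* overlapped each other at 78, 72 and 66 bases before the start, and those of *Ifit1* at 109 and 103 bases overlapped too. The copies in *Ifit3* lay apart, at 155, 121 and 102 bases before the start. A count of 3 or more was found in only 21 genes of 27025 (0.0777%), a limit that was chosen after these counts had been seen. No core was found in the promoter windows of *H2-K1*, *H2-D1*, *Tap1*, *Tapbp* and *Irf7*, which says only that these letters do not occur in the windows searched. The gamma-activated site was found in 0 of the 9 genes and in 9.55% of all genes. Among the other genes of a list of interferon-stimulated genes, the core was found in 25 of 39 with a promoter (64.1%).

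**Figure D1:**
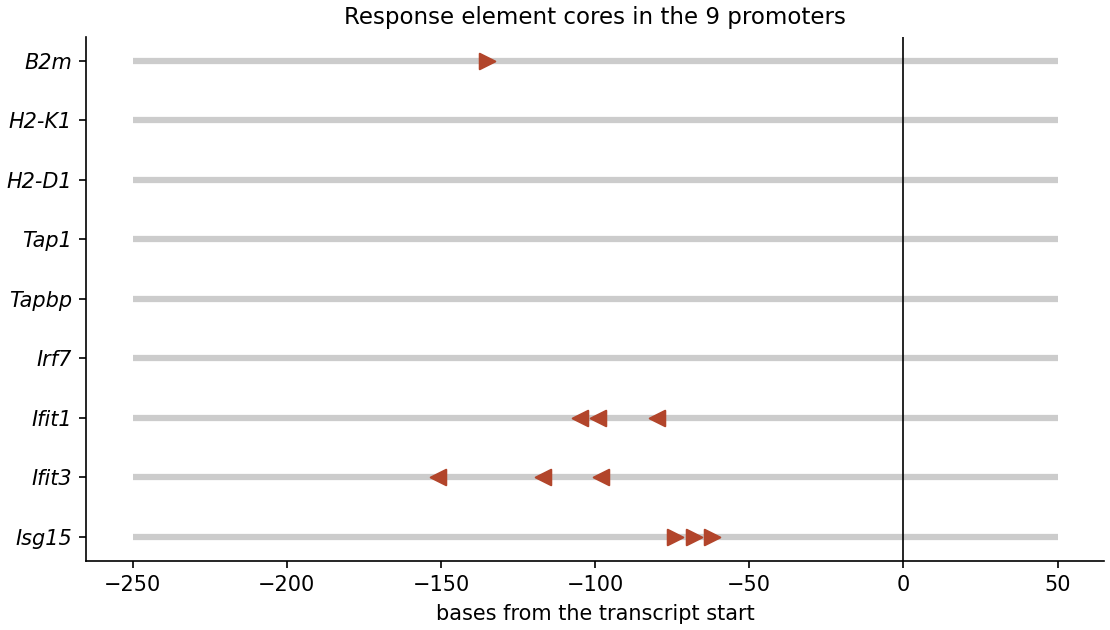
Position of each copy of the response element core in the promoters of the 9 genes, in bases from the transcript start (x axis), with 1 row per gene. Grey bars are the sequence searched and triangles the copies, pointing right on the strand of the gene and left on the opposite strand; *Ifit1*, *Ifit3* and *Isg15* hold 3 copies each, *B2m* holds 1 and the other genes hold none.

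The heavy chain genes share a different stretch. The longest run of bases that the promoters of *H2-K1* and *H2-D1* have in common was 47 bases long, from 141 to 95 bases before the start of *H2-K1* and from 201 to 155 bases before that of *H2-D1*. Its last 30 bases are printed because they hold 13 bases, in capitals, that equal their own reverse complement except at the central base. In *H2-D1* this stretch also lies within the first exon, in the 5′ UTR, of a longer transcript in the annotation.
H2-K1, chr17:34137387-34137416, minus strand: gaagcccagggcTGGGGATTCCCCAtctcc
H2-D1, chr17:35399855-35399884, plus strand: gaagcccagggcTGGGGATTCCCCAtctcc

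The stretch in capitals has the form of the sites bound by the NF-kappaB family of transcription factors. On either strand it was found in the promoters of 3 of 27025 genes (0.0111%), and these were *H2-K1*, *H2-D1* and *H2-Q6*, another class I gene. The stretch was picked after the sequences had been read, and nothing was measured here on the binding of any factor.

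The genes lie on 5 chromosomes, and 4 of them lie in the MHC region of chromosome 17 (NCBIM37). *Tapbp* was at chr17:34052844-34066235, *H2-K1* at chr17:34132962-34137278, *Tap1* at chr17:34324498-34334170 and *H2-D1* at chr17:35399675-35404444. *H2-K1* and *H2-D1* were 1.26 Mb apart. *Ifit3* at chr19:34658021-34663221 and *Ifit1* at chr19:34715361-34724499 were both in the IFIT cluster, 52.1 kb apart. *B2m* was at chr2:121973422-121978819 and *Isg15* at chr4:155573533-155574927. *Irf7* at chr7:148448605-148452380 was on the chromosome of *Apoe*, the replaced locus, but 128 Mb from it.

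Reads of some of these genes could be shared with near-identical copies or with overlapping genes. Of the 149-base stretches of the *Ifit3* transcript, as long as the reads, 18.7% also occurred in *I830012O16Rik*, an IFIT paralog that had a mean normalized count of 169 in the EC against 110 in the PVC. The values of *Ifit3* are therefore uncertain. The corresponding shares were 1.89% for *H2-D1*, mostly with *H2-Q2*, 1.28% for *Ifit1*, with *2010002M12Rik*, and 0 for the other 6 genes. Exons of *Tap1* overlapped those of *Psmb9* on the opposite strand over 200 or 212 bases, for the 2 gene models of that symbol. Exons of *Tapbp* overlapped *Zbtb22* on the same strand over 61 bases. Those of *Irf7* overlapped *Phrf1* on the opposite strand over 45 bases. The library kit does not mark strand, so reads of overlaps on opposite strands cannot be assigned by strand. For *Tapbp* and *Zbtb22*, strand would not separate the reads in any case.

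The light chain gene was the most abundant of the 9 in both regions. *B2m* had a mean normalized count of 2881 in the EC against 1754 in the PVC, which was 58.3 and 64.8 ppm. This placed it at percentile 83.9 of the 26055 genes above 0 in the EC and 85.1 of the 25314 genes above 0 in the PVC. *H2-D1* had a mean of 1363 in the EC against 965 in the PVC, or 27.6 and 35.7 ppm. *H2-K1* had a mean of 1124 in the EC against 597 in the PVC, or 22.8 and 22.1 ppm. Both heavy chains were thus above the level of at least 69.7% of the genes above 0 in each region. Of those genes, only 16941 in the EC and 15682 in the PVC had a mean of at least 10.

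Levels of different genes were compared in ppm per kilobase of exon, since longer transcripts give more reads. On this scale *B2m* was at 67.8 in the EC against 75.4 in the PVC, *H2-D1* at 10.7 and 13.8, and *H2-K1* at 8.72 and 8.46. *B2m* was thus 7.78 times *H2-K1* in the EC and 8.91 times in the PVC. Against *H2-D1* the ratio was 6.36 in the EC against 5.47 in the PVC. The light chain was also above *H2-K1* and *H2-D1* together, by 3.50-fold in the EC and 3.39-fold in the PVC. Other class I chain genes, such as *H2-T23* at 3.65 in the EC and 6.67 in the PVC, were not in this sum. *H2-D1* was 1.22 times *H2-K1* in the EC and 1.63 times in the PVC, or 1.08 and 1.44 times by longest transcript.

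Of the peptide loading genes, *Tapbp* and *Tap1* stood far apart from each other. *Tapbp* had a mean of 1518 in the EC against 769 in the PVC, or 30.7 and 28.4 ppm. *Tap1* had a mean of 228 in the EC against 83.5 in the PVC, or 4.62 and 3.09 ppm. Per kilobase, *Tapbp* was at 9.32 in the EC against 8.62 in the PVC, close to the heavy chains, and *Tap1* at 0.844 and 0.564. *Tapbp* was thus at 11.1 times the level of *Tap1* in the EC and 15.3 times in the PVC, or 8.99 and 12.4 times by longest transcript. *Tap2*, which encodes the other subunit of the transporter, was above *Tap1*, at 2.54 in the EC against 2.72 in the PVC per kilobase.

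Of the interferon-induced genes, none was at 0 in either region. *Ifit3* was the highest of them, at percentiles 58.6 (EC) and 57.3 (PVC), with a mean of 383 in the EC against 197 in the PVC, or 7.76 and 7.27 ppm. *Ifit1* had a mean of 143 in the EC against 60.1 in the PVC, or 2.89 and 2.22 ppm. *Isg15* had a mean of 99.1 in the EC against 45.3 in the PVC, or 2.01 and 1.68 ppm. The transcription factor gene *Irf7* was the lowest of the 9 in ppm, with a mean of 95.8 in the EC against 44.4 in the PVC, or 1.94 and 1.64 ppm. Its percentile was 48.7 in the EC against 46.9 in the PVC, so it lay near the middle of the genes above 0.

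With the union of exons as length, the order of the 9 genes per kilobase was the same in both regions. It ran from *B2m* through *H2-D1*, *Tapbp*, *H2-K1*, *Ifit3*, *Isg15*, *Ifit1* and *Tap1* to *Irf7*. The length of *Tap1* was 5476 bases by this union and 3911 by longest transcript, against 2656 by both for *Ifit1*. For *H2-K1* these lengths were 2608 and 1874, against 3298 and 2894 for *Tapbp*. The places of these genes thus depend on the length used, and the order under other lengths is not given here. *B2m* was 106 times *Irf7* in the EC and 139 times in the PVC. Of the interferon-induced genes, *Ifit3* was at 4.45 in the EC against 4.17 in the PVC, *Isg15* at 2.65 and 2.22, *Ifit1* at 1.09 and 0.836, and *Irf7* at 0.642 and 0.542. *Ifit3* was 4.08 times *Ifit1* in the EC and 4.98 times in the PVC. The median of all genes above 0 was 1.91 in the EC against 1.99 in the PVC, so *Ifit1*, *Tap1* and *Irf7* were below it in both regions and the other 6 genes above it. Whether neighbours in this order, such as *H2-K1* and *Tapbp*, differ beyond the spread between mice was not tested.

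**Figure D2:**
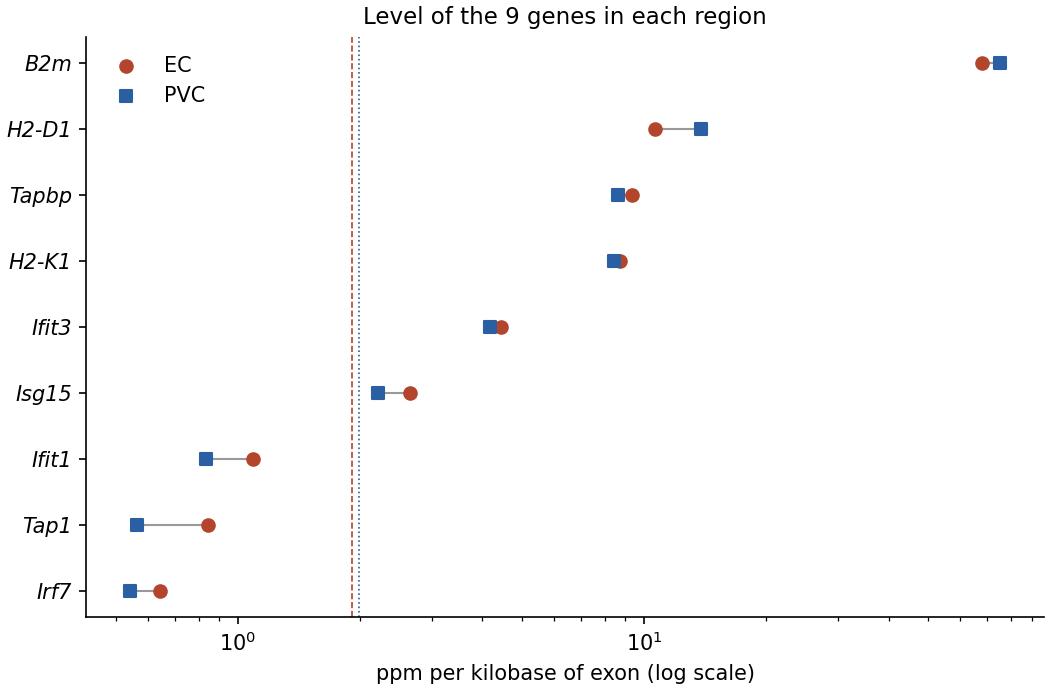
Level of each gene in ppm per kilobase of exon on a log scale (x axis), in the EC (circles) and the PVC (squares), each symbol being the authors' mean for a region, with no error. Dashed and dotted lines are the medians of all genes above 0 in the EC (1.91) and the PVC (1.99). With the union of exons as length, the order of the genes is the same in both regions. *B2m* stands apart at 67.8 and 75.4.

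The 9 genes were then set side by side in the 2 regions. Their log2 ratios of EC over PVC level in ppm ran from −0.37 to 0.58, with a median of 0.11. Over the 15642 genes with a mean of at least 10 in both regions, the median ratio was 0.02, with 25th and 75th percentiles of −0.12 and 0.19 and 5th and 95th percentiles of −0.59 and 0.73. All 9 genes thus lay between the 5th and the 95th percentile, with 7 above the median of all genes and 2 below it.

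The light chain and the heavy chains had the lowest ratios of the 9. *H2-D1* had the lowest ratio, −0.37, at percentile 8.81 of all genes, its level in the PVC being 1.29 times that in the EC. *B2m* had a ratio of −0.15, at percentile 20.7. *H2-K1* had a ratio of 0.04, at percentile 53.8. The 2 heavy chain genes thus had ratios on either side of 0.

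*Tap1* had the highest ratio of the 9, 0.58, at percentile 92.7, which is a level 1.50 times as high in the EC as in the PVC. Its mean in the PVC was below 100, at 83.5. *Tap2*, for the other subunit of the transporter, had a ratio of −0.10, at percentile 27.3. *Tapbp* had a ratio of 0.11, at percentile 65.8. The interferon-induced genes were all above the median of all genes, 4 of 4, with a median ratio of 0.25. Among these, *Ifit1* was at 0.38, *Isg15* at 0.26, *Irf7* at 0.24 and *Ifit3* at 0.09, at percentiles 87.0, 80.7, 79.3 and 62.9. Of the 4, only *Ifit3* had a mean of at least 100 in both regions. *I830012O16Rik*, the paralog that shares sequence with *Ifit3*, had a ratio of −0.25.

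**Figure D3:**
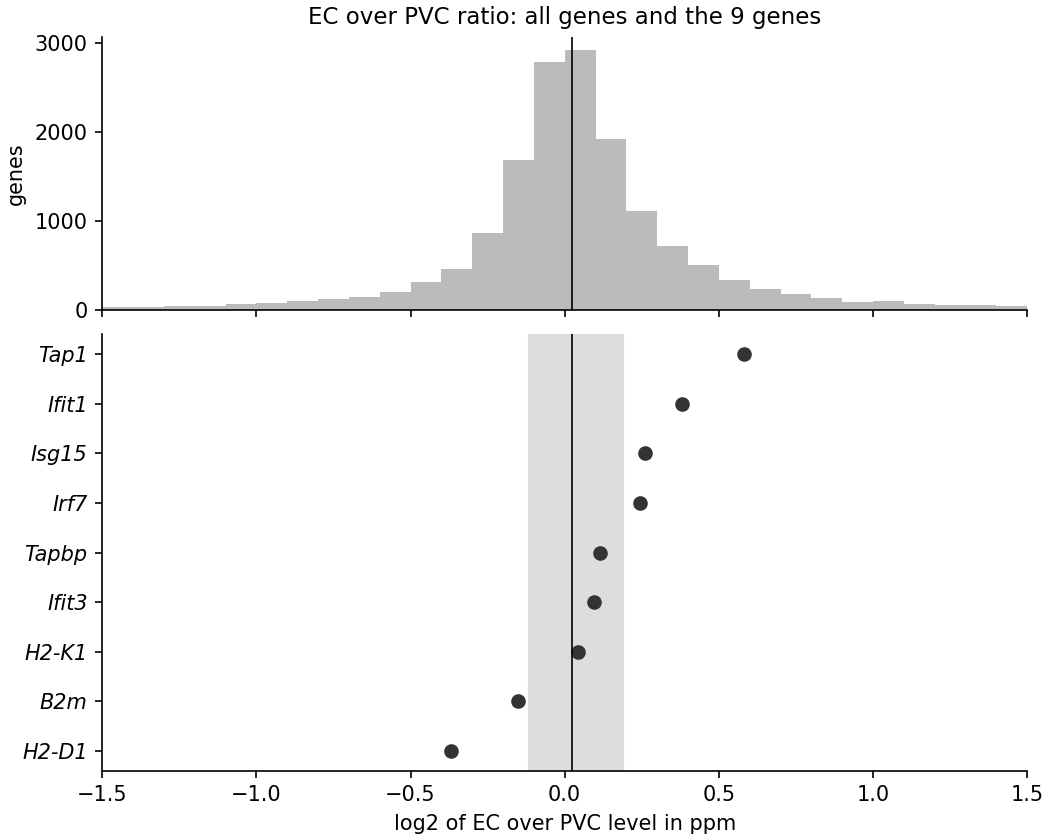
Log2 of EC over PVC level in ppm (x axis in both panels). The upper panel counts all genes with a mean of at least 10 in both regions, within the range shown, and the lower panel gives each of the 9 genes as a point, with the median of all genes as a line (0.02) and their 25th to 75th percentiles shaded; *Tap1*, *Ifit1*, *Isg15* and *Irf7* lie to the right of the shading, and *B2m* and *H2-D1* to its left.

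The other genes of each step were then described from lists of the pathway. Beside heavy chains, the class I list holds *B2m* and the class I-like genes *Cd1d1*, *Mr1*, *Fcgrt* and *Hfe*, with ratios of 1.08, 0.27, 0.44 and 0.42. Among its 16 genes with a mean of at least 10 in both regions, 9 were above and 7 below the median ratio of all genes. These 9 include the class I-like genes, and the list's median was 0.05. For the 8 genes with a mean of at least 100 it was −0.11. The genes of the list spread widely, from *H2-T23*, which encodes the chain of the nonclassical molecule Qa-1, at −0.87 to *H2-Q2* at 1.1. *H2-T23* had nearly the same mean in both regions, 521 in the EC against 522 in the PVC, despite the larger sum of the EC. *H2-Q2*, whose reads could be split with *H2-D1*, had a mean of 107 in the EC against 27.2 in the PVC.

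In the peptide loading list, 10 of 13 genes were above the median ratio of all genes and 3 below, with a median of 0.12. *Tap1* had the highest ratio of this list. The lowest was that of *Psmb10*, a subunit of the immunoproteasome, at −0.19. The most abundant genes were the general chaperones of the endoplasmic reticulum that also assist class I folding. *Canx* (calnexin) had a mean of 20925 in the EC against 10212 in the PVC, with a ratio of 0.17. *Calr* (calreticulin) and *Pdia3* had ratios of 0.12 and 0.11, close to that of *Tapbp*.

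Transcripts of interferons themselves were very low. None of the 19 ligand genes reached a mean of 10 in either region. The highest in the EC was *Ifne* with a mean of 0.909, and the highest in the PVC was *Ifnk* with 0.204. *Ifnb1* had a mean of 0.114 in the EC against 0.112 in the PVC, and *Ifng* had 0.0441 and 0.101. Ligand genes listed at 0 numbered 4 in the EC and 6 in the PVC, and 3 of them were at 0 in both. The receptors were well above this. *Ifnar1* had a mean of 2714 in the EC against 1452 in the PVC, and *Ifnar2* had 732 and 352. For interferon gamma, *Ifngr1* had a mean of 653 in the EC against 324 in the PVC, and *Ifngr2* had 2055 and 864.

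Of 16 genes for interferon receptors and their signalling, 10 were above and 6 below the median ratio of all genes, with a median of 0.05. *Ifngr2* had a ratio of 0.38, against 0.14 for *Ifngr1*, its partner in the receptor. *Ifnar1* and *Ifnar2* had ratios of 0.03 and 0.19. The extremes of the list were *Jak2*, a kinase of the interferon gamma receptor, at −0.24 and *Socs1*, an inhibitor of that signalling, at 0.50. *Socs1* had a mean of only 31.0 in the EC against 12 in the PVC.

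*Irf7*, with its ratio of 0.24, was among the 4 of its family above the median of all genes. The 9 interferon regulatory factors had a median of 0.0064, with 5 below the median of all genes, and the lowest ratio was that of *Irf2* at −0.32. For the 5 factors with a mean of at least 100 the median was −0.16, and *Irf7* was not among them. *Irf2*, which acts mainly as a repressor, was also the most abundant, at 23.2 ppm in the EC against 29 in the PVC. *Irf3*, which is activated by sensors of viral nucleic acid, had a ratio of −0.16, and *Irf9*, a DNA-binding part of the complex that type I interferons activate, had 0.06.

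Among 47 interferon-stimulated genes, 36 were above and 11 below the median ratio of all genes, with a median of 0.24. *Irf7*, *Ifit1*, *Ifit3* and *Isg15* belong to this list. Without them, 32 of 43 were above and 11 below, with a median of 0.17. The shift was smaller among abundant genes. Among the 23 genes of the list with a mean of at least 100 in both regions, the median was 0.063, with 14 above and 9 below the median of all genes of that level, which was 0.01. Of the most abundant genes of the list, *Adar* and *Stat2* had ratios of −0.04 and −0.01. The extremes were *Iigp1*, an immunity-related GTPase, at 0.76 and *Herc6*, an ISG15 ligase, at −1.89. *Herc6* had a mean of 449 in the EC against 914 in the PVC, so its level in ppm was 3.71 times as high in the PVC, whereas *Isg15* itself was slightly higher in the EC.

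The list of nucleic acid sensors and their adaptors, which also counts *Tlr4*, gave a median ratio of 0.06. Of its 15 genes, 10 were above and 5 below the median of all genes. For the 8 genes with a mean of at least 100 the median was −0.038. *Tlr4*, a receptor for bacterial lipopolysaccharide, was highest at 0.79 and *Ifih1*, which encodes the RNA sensor MDA5, was lowest at −0.49. The class II list, which is the presentation pathway for CD4 T cells, gave the highest median of the pathway lists, 0.54, with 7 of 9 genes above and 2 below. For the 3 class II genes with a mean of at least 100 it was 0.40. *H2-Aa*, a class II chain, had a mean of 202 in the EC against 44.3 in the PVC and a ratio of 1.32. *Cd74*, the invariant chain, had a ratio of 1.02, and *Ciita*, the master regulator of class II genes, had the lowest at −0.26.

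**Figure D4:**
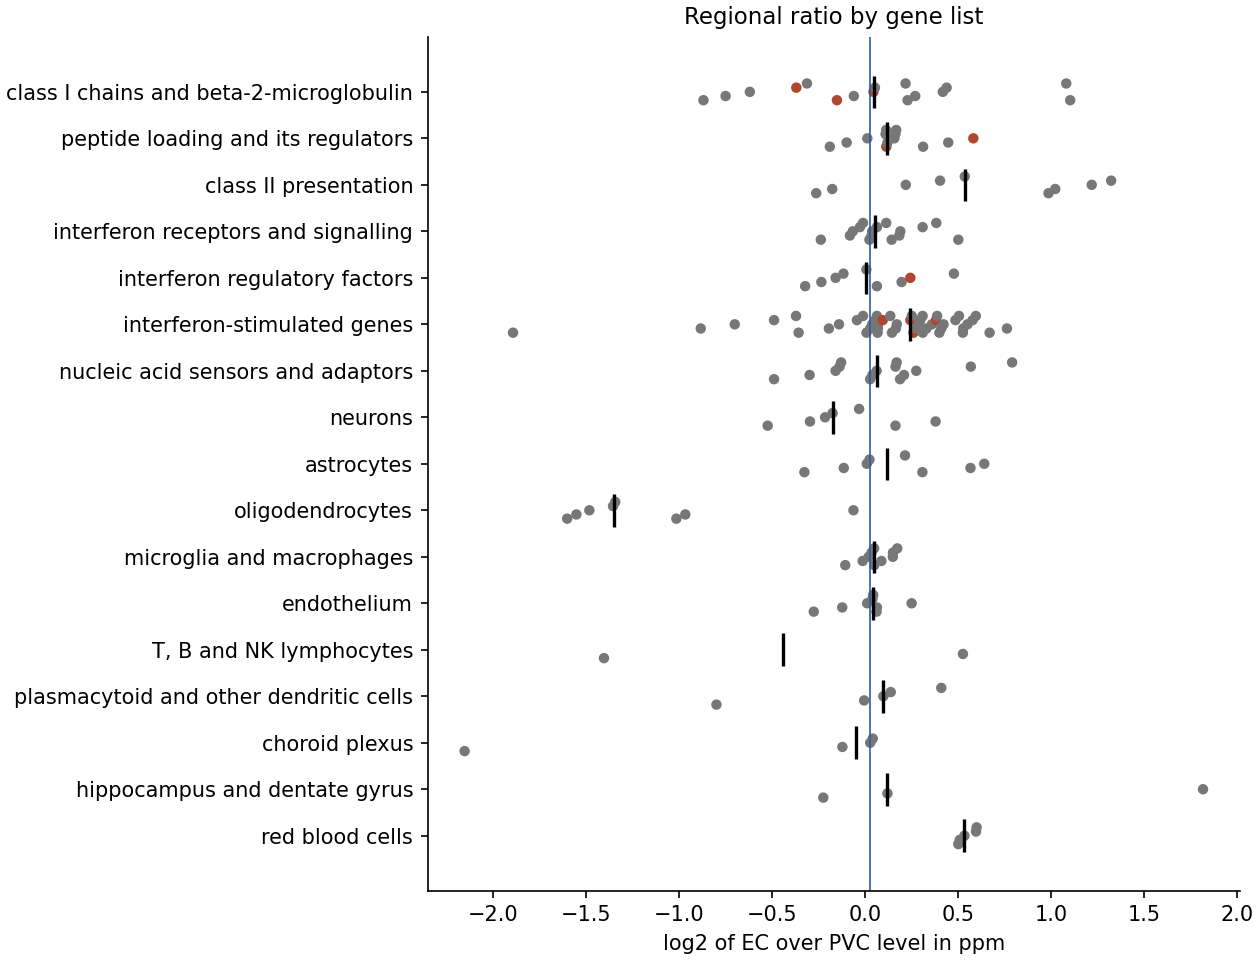
Log2 of EC over PVC level in ppm (x axis) for each gene with a mean of at least 10 in both regions, grouped by pathway list and cell type marker list (rows). Red points are the 9 genes, grey points the other genes of a list, black bars the list medians and the blue line the median of all genes (0.02); the interferon-stimulated genes have a median of 0.24, the class II genes 0.54 and the oligodendrocyte markers −1.35.

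Markers of several cell types were also set side by side in the 2 regions. Microglial markers, from a cell type that carries class I molecules and interferon receptors, were near the middle, with 7 of 10 above and 3 below the median of all genes, ratios from −0.11 to 0.17 and a summed level of 372 ppm in the EC against 349 in the PVC. Endothelial markers summed to 218 ppm in the EC against 213 in the PVC, with 5 of 8 genes above and 3 below. Markers of red blood cells were all above, 5 of 5, with ratios from 0.50 to 0.60 and a summed level of 88.4 ppm in the EC against 60.1 in the PVC. Markers of oligodendrocytes were all below, 8 of 8, and summed to 959 ppm in the EC against 2396 in the PVC. Neuronal markers had ratios from −0.52 to 0.38, with 2 of 7 above and 5 below and a median of −0.18. Astrocyte markers had ratios from −0.33 to 0.64, with 4 of 8 above and 4 below, and summed to 5797 ppm in the EC against 5499.96 in the PVC. Choroid plexus markers summed to 8.96 ppm in the EC against 19.7 in the PVC, with 2 of 4 above and 2 below and a lowest ratio of −2.15. Markers of the hippocampus summed to 17.1 ppm in the EC against 13.1 in the PVC, with 2 of 3 above, 1 below and a highest ratio of 1.82. Lymphocyte markers were low, and only 2 of 12, *Cd4* and *Ptprc*, reached a mean of 10 in both regions, although none was at 0. The list of dendritic cells had 3 of 5 genes above and 2 below, and summed to 49.96 ppm in the EC against 54.5 in the PVC. The part of these cell types in the ratios of the 9 genes was not tested.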

How the data were processed

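RNA from the EC and PVC was sequenced as single-end reads of 149 bases from unstranded poly(A)+ libraries. Per the labels, the authors used TopHat2 2.0.6 and Bowtie2 2.0.2.0 with mm9 (NCBIM37), HTSeq for counts per gene and DESeq2 1.10.1. The counting mode is not given in the sources used here. Values used here are the deposited mean of counts divided by size factors, a signal that the authors averaged over all libraries of a region. The tables' other columns (log2 fold change between genotypes, its standard error, Wald statistic and p-values) are the authors' own comparison and were not used.

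Means were divided by their sum in a region and given as parts per 1000000 (ppm). Ratios used genes with a mean of at least 10 in both regions. Lengths are the union of exons in GENCODE M1 (NCBIM37), in which 80.6% of symbols matched a gene of unique symbol. Of the matched genes, 4686 are annotated as other than protein coding. No count model could be fitted. With 1 pooled value per region, precision is not known.

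The genes and the lists were chosen with earlier results of these data known. Named genes were the 9, and from each pathway list the 3 of highest level, the highest and lowest ratio, and interferon ligands and receptors. *Cd4*, *Ptprc*, *H2-Q6*, *Tap2*, *Cd1d1*, *Mr1*, *Fcgrt*, *Hfe* and the genes sharing sequence with the 9 were named after their values were seen. Alternatives were other scalings, minimum means, lengths and motif settings. Some genes that this rule names are not reported here. A comparison of protein sequences was not run. The ratio, with scaling by the median of ratios, and the motif search were tested on simulated data, and the other steps were not. Python 3.11.15, numpy 2.4.6, pandas 2.3.3 and matplotlib 3.10.9 were used.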

Additional observations from a re-analysis of the deposited data

How the results depend on the processing

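Of 58 values under alternative settings, 49 moved by no more than 0.1 on the log2 scale, 5 percentile points or 1.5-fold. No ratio of the 9 genes changed sign. A change of scaling shifts all ratios by the same constant, so its values for the 9 genes and their median are not separate checks. Some other values could not move, since the alternative setting used the same genes or the same lengths. Scaling by the median of ratios, or by the sum without the highest 1% of genes, gave a median ratio of the 9 genes of 0.11 in both cases. With a minimum mean of 100, the median ratio became −0.11 for the class I list and 0.40 for class II. It became −0.16 for the interferon regulatory factors and 0.063 for the interferon-stimulated genes, and that of the nucleic acid sensor list changed sign to −0.038. With any mean above 0, that of class II became 0.40. The median percentile of the 9 genes was 58.6 (EC) and 57.3 (PVC), and 36.3 and 31.0 among genes with a mean of at least 10. With coding length, the ratio of *B2m* to *Isg15* rose from 25.6 to 39.4 in the EC and from 34.01 to 52.3 in the PVC, since the lengths of these genes differ in their noncoding share. The extended core and the search before the start only also gave 4 genes. Leaving out a mouse could not be done with pooled means. No paired analysis was possible because the result comes from no test. The comparison of protein sequences was not run. Single pooled means give no limit of detection for low genes, and a value near 0 cannot be told from 0.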
